A study of Mus musculus with 13 samples.

Results

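Metallothioneins are small cysteine-rich proteins that bind zinc, copper and cadmium, and zinc transporters move zinc and other divalent metals across membranes. The genes described here are 7 of the 18820 genes with a single-symbol feature on the array: the metallothioneins Mt1 and Mt2, the zinc-sensing transcription factor Mtf1, the exporters Slc30a1 and Slc30a10, and the importers Slc39a8 and Slc39a14. The genes were listed by name with earlier results of these data known, so counts among them are a description and not a test of the set. Their features were chosen by mean signal: of features annotated to that gene alone, the brightest on average over all 13 livers was to be taken. Each of the 7 had exactly 1 such feature, so the mean signal decided nothing, and all 7 were tested with no filter on low values.

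RNA of 13 mouse livers, 1 array per liver, was measured. The LiSel1lKO mice carried 2 Sel1l alleles with loxP sites around exon 6 and a Cre transgene under the albumin promoter, which deletes the gene in hepatocytes and leaves it in the other cells of the liver. Sel1l encodes an adaptor of the ubiquitin ligase complex that removes misfolded proteins from the endoplasmic reticulum. The groups were LiSel1lKO livers at 9 weeks (3 livers), wildtype livers at 9 weeks (3 livers), LiSel1lKO livers at 3 weeks (4 livers) and wildtype livers at 3 weeks (3 livers). All mice were of the C57BL/6J strain and were fasted for 5 to 6 hours in the morning before the liver was taken. Whether the wildtype mice carried the floxed alleles or the Cre transgene is not stated in the sources used here, nor is the sex of the mice.

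In hepatocytes, zinc that enters through ZIP (Slc39) importers binds the factor MTF1, which then binds metal response elements in DNA and raises transcription of the metallothionein genes and of Slc30a1, the zinc exporter of the cell surface. Metallothionein genes also respond to glucocorticoids, to interleukin-6 through STAT3 and to oxidants. ZIP14 (Slc39a14) and ZIP8 (Slc39a8) carry manganese and iron as well as zinc, and ZnT10 (Slc30a10) is a manganese exporter, which in liver passes manganese to bile.

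Sequences before annotated transcript starts are shown because the metal response element is the site through which MTF1 acts. RefSeq windows of build GRCm38.p6 were found for 6 of the 7 genes, with 7 windows in all since Slc39a8 had 2, and Slc39a14 had none. The 250 bases before each of these transcript starts were searched on both strands for the core of the element, spelled TGCACNC or TGCGCNC, and matches stand in capitals. Mt2 had 3 matches in chr8:94172368-94172617 and Slc30a10 had 3 in chr1:185454598-185454847, where the first 2 overlap on opposite strands and form 1 run of capitals. Mt1 had 1 match, shown with its surroundings in chr8:94179054-94179083, and Slc30a1 had 1, shown in chr1:191906726-191906755. All 4 are on the plus strand and are printed 5′ to 3′. A gene can have several transcript starts: the Mt2 and Slc30a10 windows end just before the first base of the annotated gene, while the printed Mt1 and Slc30a1 sites lie after it, before a later transcript start, and both Slc39a8 windows lie inside that gene.
Mt2: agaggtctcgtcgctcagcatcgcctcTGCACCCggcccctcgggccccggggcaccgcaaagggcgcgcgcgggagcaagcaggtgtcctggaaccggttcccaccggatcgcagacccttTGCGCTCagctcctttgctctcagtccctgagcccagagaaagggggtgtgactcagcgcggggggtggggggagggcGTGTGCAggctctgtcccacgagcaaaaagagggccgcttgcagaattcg
Slc30a10: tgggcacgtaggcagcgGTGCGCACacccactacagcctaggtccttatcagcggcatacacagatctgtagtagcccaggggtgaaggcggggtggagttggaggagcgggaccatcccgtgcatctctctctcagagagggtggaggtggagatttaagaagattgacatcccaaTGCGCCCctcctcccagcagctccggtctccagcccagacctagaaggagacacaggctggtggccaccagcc
Mt1: gcggtcccgctgTGCACACtggcgctccag
Slc30a1: aacgggggttccGAGTGCAaagcaaagttt
One of the 2 Slc39a8 windows had 1 match, and the Mtf1 window had none. Over all 32851 windows of this length, 21.41% held at least 1 match and 5.17% held at least 2. The antioxidant response element core TGACNNNGC, present in 10.16% of all windows, was found before Mt2, Slc30a1 and, in 1 of its windows, Slc39a8. The ATF4-type element TGATGNAA, present in 3.45% of all windows, was found in none of the 7. A match describes the letters and is not a measured binding site. The counts depend on where each window stops. Bases outside the windows were not searched, so the counts do not rank the genes by their elements. The Mt2 and Mt1 genes lie next to each other on chromosome 8, with 5315 bases between the last base of the annotated Mt2 gene and the first of the annotated Mt1 gene.

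Values below are the deposited log2 expression values of the RMA method, on which a difference of 1 is a 2-fold difference in signal, and differences between groups are given with their standard error (SE). Each comparison was tested with limma across all 35556 features, and a gene was called changed where the Benjamini-Hochberg adjusted p was under 0.05. Albumin (Alb), 1 of 9 hepatocyte markers, was used to check the tissue. It averaged 13.29 ± 0.03 (SD) in LiSel1lKO and 13.28 ± 0.02 in wildtype livers at 9 weeks. At 3 weeks it averaged 13.34 ± 0.03 in LiSel1lKO and 13.29 ± 0.03 in wildtype livers. At 9 weeks 2 of the 9 markers were higher in LiSel1lKO livers, with a median difference of -0.109. At 3 weeks 6 of the 9 were higher, with a median of 0.0202, and none was called at either age. Sel1l was 7.90, 7.54 and 7.72 in LiSel1lKO against 8.78, 8.70 and 8.72 in wildtype livers at 9 weeks, and 8.42, 7.90, 7.20 and 7.10 in LiSel1lKO against 8.94, 8.77 and 8.85 in wildtype livers at 3 weeks. Every LiSel1lKO liver lay below every wildtype liver, with replicate 1 at 3 weeks closest to them, and how many of the feature's probes lie in exon 6 was not checked. The Sel1l difference was -1.02 ± 0.28 (SE) at 9 weeks and -1.21 ± 0.26 at 3 weeks. With adjusted p-values of 0.108 and 0.391 by limma, Sel1l itself was not called at either age. In bulk liver, fewer cells of a type and less RNA per cell cannot be told apart.

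**Figure D1:**
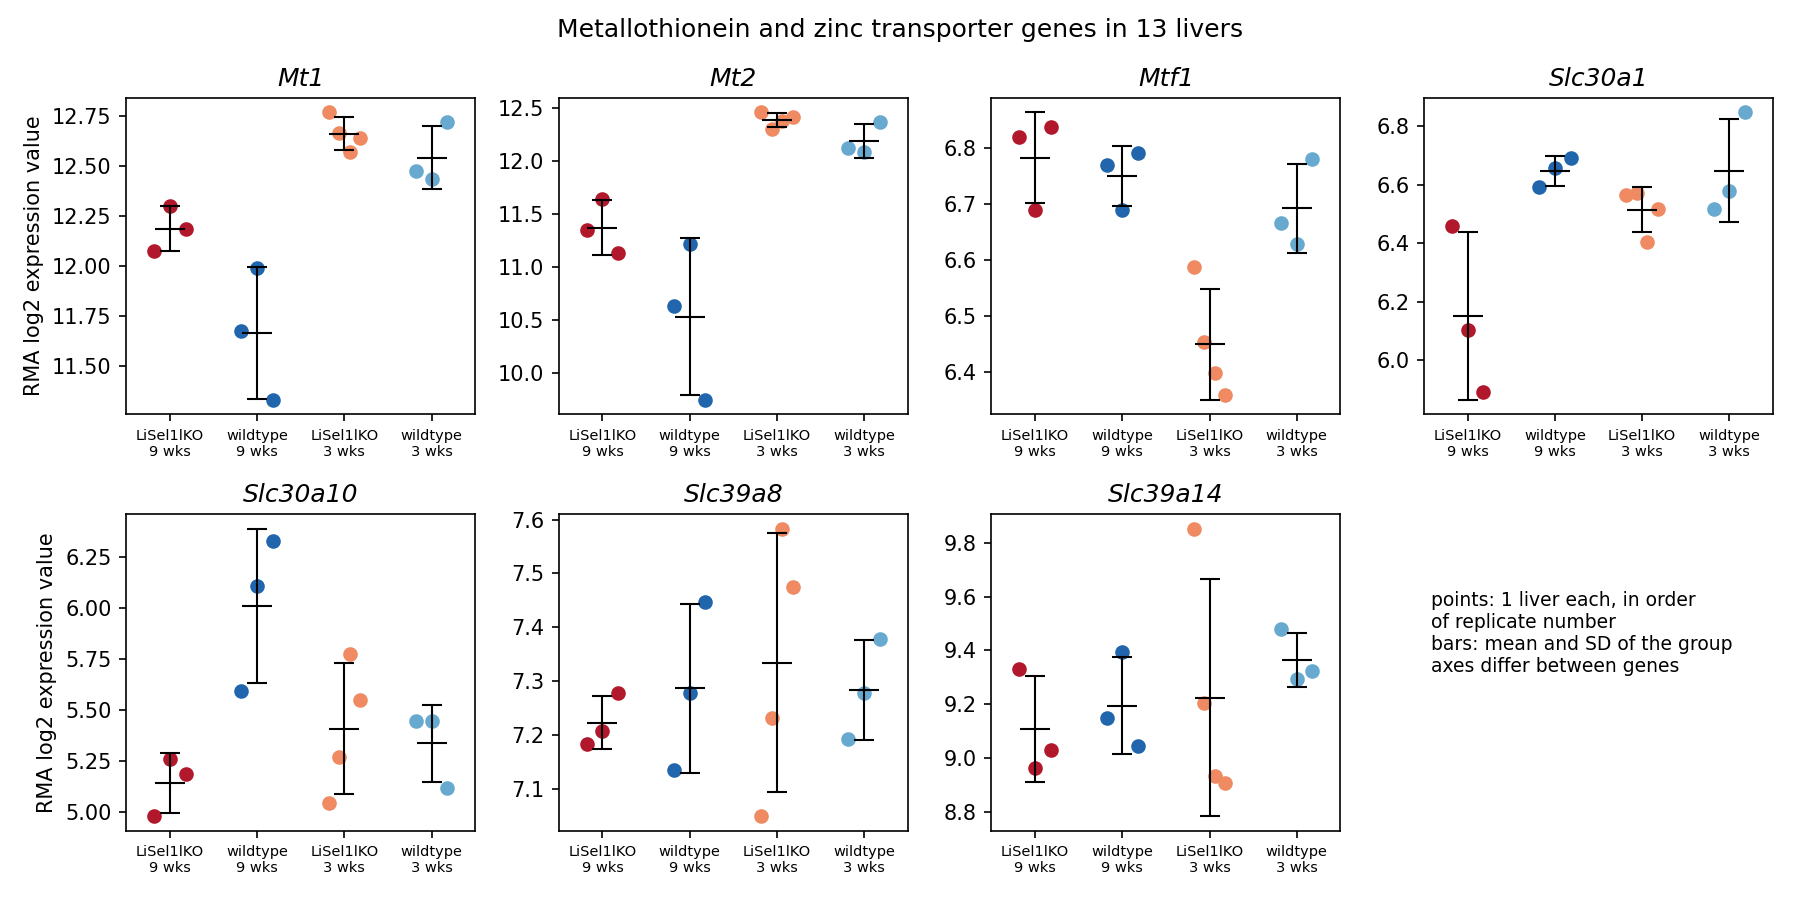
Log2 expression of the 7 genes in 13 livers, 1 panel per gene, with LiSel1lKO left of wildtype at 9 weeks and then at 3 weeks; points are livers in order of replicate number, bars the group mean and SD, and the vertical axes differ between panels. Mt1 and Mt2 lie lower at 9 weeks than at 3 weeks, and Slc30a10 has its highest mean, 6.01, in the wildtype livers at 9 weeks.

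Both metallothioneins fell with age in wildtype livers, and no other of the 7 genes passed the test in any comparison. Mt2 was 10.63, 11.22 and 9.74 in the 9-week wildtype livers, against 12.12, 12.08 and 12.37 in the 3-week wildtype livers. No 9-week wildtype liver reached any 3-week liver, and replicate 3 was the lowest of all 13. The difference was -1.66 ± 0.28 (SE), 0.317-fold, with an adjusted p of 0.0154 by limma. Mt1 was 11.67, 11.99 and 11.33 in the 9-week wildtype livers, against 12.47, 12.43 and 12.72 in the 3-week wildtype livers. It fell by 0.88 ± 0.15, to 0.544-fold, with an adjusted p of 0.0147 by limma, and these groups did not overlap either. These were the 2 of 7 genes called in this comparison, in which 1.89% of all features were called and 1.12% called lower. As the 7 were chosen with earlier results of these data known, these shares are given only as a description. An unadjusted p under 0.05 was found for 3 of the 7, Mt1, Mt2 and Slc30a10, against 13.6% of all features. Both calls were lost without replicate 3 of the 3-week wildtype livers, with differences of -0.79 for Mt1 and -1.57 for Mt2 and adjusted p-values of 0.0532 and 0.056. They were also lost when only the wildtype livers were fitted, at adjusted p-values of 0.144 and 0.153.

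The array names carry a code with a number, 5 or 7, that was read here as the column of a position. What the code means is not stated in the sources used here. Each age and genotype group has livers in both columns. Between the wildtype livers of column 5 Mt1 differed by -0.61 and Mt2 by -1.02, and between those of column 7 by -0.93 and -1.89. The age difference thus had 1 direction in both columns and was larger in column 7. In column 5 a single liver stands for the 9-week wildtype group, and in column 7 a single liver for the 3-week wildtype group. Neither within-column difference was called.

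In LiSel1lKO livers the metallothioneins also stood lower at 9 weeks than at 3 weeks, without passing the test. Mt2 was 11.35, 11.64 and 11.12 at 9 weeks, against 12.46, 12.30, 12.37 and 12.41 at 3 weeks. The groups did not overlap, and the difference was -1.02 ± 0.27 (SE), 0.494-fold, with an adjusted p of 0.192 by limma. Mt1 was 12.07, 12.30 and 12.19 at 9 weeks, against 12.77, 12.67, 12.57 and 12.64 at 3 weeks, again with no overlap. Its difference was -0.48 ± 0.14, 0.719-fold, with an adjusted p of 0.246. None of the 7 genes was called between the ages in LiSel1lKO livers, where 0.155% of all features were called. By limma 4 of the 7 had an unadjusted p under 0.05, against 10.1% of all features. There 3 of the 7 had groups that do not overlap, against 10.8% of all genes, and in wildtype livers 3 of 7 against 19.6%.

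Between the genotypes at 9 weeks, the metallothioneins were higher in LiSel1lKO livers and the 2 exporters lower, but none of the 7 genes passed the test, in a comparison in which 1.52% of all features were called. By limma 4 of the 7, Mt1, Mt2, Slc30a1 and Slc30a10, had an unadjusted p under 0.05, against 13.9% of all features. Mt1 differed by 0.52 ± 0.15 (SE), 1.44-fold, with an adjusted p of 0.121 by limma. The 3 LiSel1lKO livers, from 12.07 to 12.30, all lay above the 3 wildtype livers, from 11.33 to 11.99. Mt2 differed by 0.84 ± 0.28, 1.79-fold, with an adjusted p of 0.194. Its LiSel1lKO livers, from 11.12 to 11.64, overlapped with the wildtype livers, from 9.74 to 11.22. The wildtype livers were the more spread of the groups, with an SD of 0.74 for Mt2 against 0.26 in LiSel1lKO livers. Within column 7 the differences of Mt1 and Mt2 were 0.80 and 1.45, and within column 5 they were 0.14 and 0.02. A single LiSel1lKO liver stands for its group in column 7, and a single wildtype liver in column 5. The comparisons by genotype and by age share the 9-week wildtype livers, so a low value there enters both.

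At 3 weeks the metallothioneins of the genotypes overlapped. Mt1 differed by 0.12 ± 0.14 (SE) and Mt2 by 0.20 ± 0.27, with adjusted p-values of 0.882 and 0.898 by limma. The 95% intervals ran from -0.19 to 0.43 for Mt1 and from -0.39 to 0.78 for Mt2. No feature of the array (0%) was called between genotypes at this age by limma. With an unadjusted p under 0.05 there were 2634 features, 7.41%, and 1 of the 7 genes, Mtf1. The difference between the genotype effects at the 2 ages was 0.40 ± 0.20 for Mt1 and 0.64 ± 0.39 for Mt2, with adjusted p-values of 0.553 and 0.633. Without replicate 3 of the 9-week wildtype livers these were 0.23 and 0.25, and without replicate 2 of them 0.57 and 0.99. No feature (0%) was called in that test by limma either. With an unadjusted p under 0.05 there were 3459 features, 9.73%, and 2 of the 7 genes, Mtf1 and Slc30a10, so a genotype effect that differs by age is not shown for these genes.

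Across the groups, both metallothioneins were ordered alike, with the highest mean in LiSel1lKO livers at 3 weeks and then wildtype livers at 3 weeks, LiSel1lKO livers at 9 weeks and wildtype livers at 9 weeks. The 2 groups of 3-week livers overlapped for both genes, and the 3-week and 9-week groups were separate. The neighbouring 9-week groups overlapped for Mt2 and not for Mt1.

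**Figure D2:**
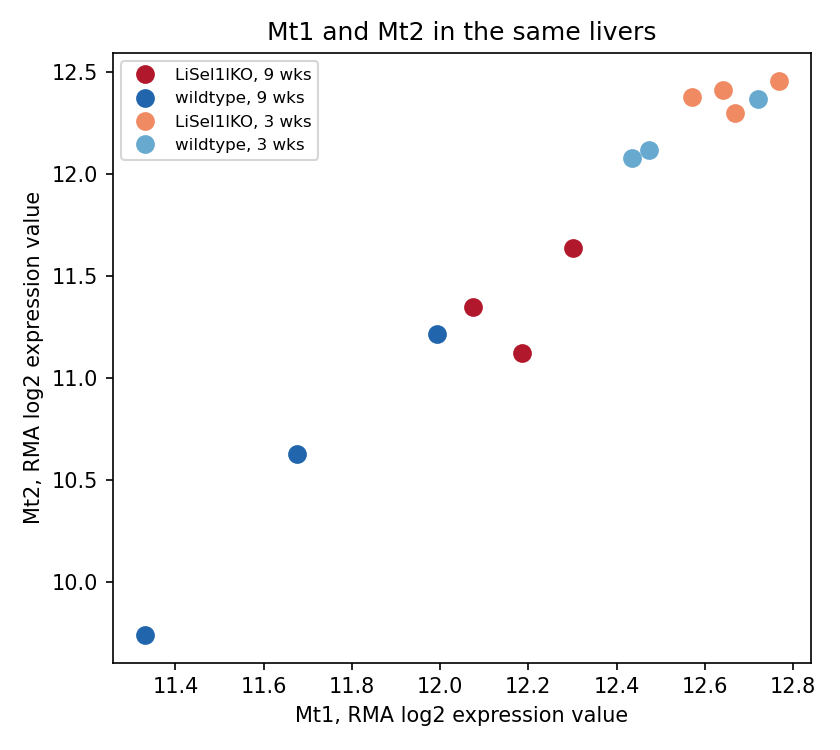
Mt2 against Mt1 in the same livers, both as log2 expression, 1 point per liver, coloured by genotype and age. The 9-week livers lie below and left of the 3-week livers, and within the 9-week livers the values span 9.74 to 11.64 for Mt2.

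Mt1 and Mt2 followed each other from liver to liver. As the ages form separate clusters, the correlation was taken within each, as 1 of 2 relations. Within the 6 livers at 9 weeks Pearson's r was 0.964 (exact permutation p = 0.00694, adjusted 0.0129, two-sided) and Spearman's rho 0.8286 (exact permutation p = 0.0583). Within the 7 livers at 3 weeks r was 0.881 (exact permutation p = 0.0129, adjusted 0.0129) and rho 0.714 (exact permutation p = 0.0881). Without the 2 livers farthest from the Mt1 median, r was 0.614 over 4 livers at 9 weeks and 0.379 over 5 livers at 3 weeks (exact permutation p = 0.375 and 0.517). The relation within each age thus rests on those livers, and leaving them out also narrows the range of Mt1. It also pools the 2 genotypes, between which both genes differed in the same direction. As deviations from the group means over all 13 livers, r was 0.908 (permutation p = 0.00027, two-sided). That permutation treats all deviations as interchangeable, though the SD of Mt2 was 0.74 in wildtype livers at 9 weeks and 0.07 in LiSel1lKO livers at 3 weeks. Deviations within a group are also tied to each other, so this p is only a rough guide. The genes are close paralogues on the same chromosome, and how far their probes read each other's RNA was not tested. The other metallothioneins of the mouse, Mt3 of the brain and Mt4 of stratified epithelia, had means between 2.42 and 3.64 in the groups, below the median of the array values, and neither was called in any comparison.

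Mtf1, the metal-sensing activator of the metallothionein genes, was 6.82, 6.69 and 6.84 in LiSel1lKO livers at 9 weeks, against 6.77, 6.69 and 6.79 in wildtype livers. At 3 weeks it was 6.59, 6.45, 6.40 and 6.36 in LiSel1lKO livers, against 6.67, 6.63 and 6.78 in wildtype livers. The LiSel1lKO livers at 3 weeks were lower than every other group, and the other 3 groups overlapped with each neighbour in the order of their means. The genotype difference was 0.03 ± 0.08 (SE) at 9 weeks and -0.24 ± 0.08 at 3 weeks, with adjusted p-values of 0.914 and 0.531 by limma. At 3 weeks Mtf1 was the only one of the 7 genes with groups that do not overlap, against 7.46% of all genes. At that age all 9 Kupffer cell and macrophage markers were also lower in LiSel1lKO livers, none of them called, with a mean level per liver from 7.57 to 7.89, against 8.05 to 8.17 in wildtype livers. All 5 erythroid markers were lower, with mean levels from 3.21 to 3.58 in LiSel1lKO livers against 3.73 to 4.36 in wildtype livers, as were 7 of 8 stellate markers, from 7.15 to 7.42 against 7.36 to 7.57, and 5 of 7 sinusoidal endothelial markers, from 8.03 to 8.31 against 8.29 to 8.41. The part of these cells in the Mtf1 difference was not tested. Between the ages Mtf1 differed by 0.33 ± 0.08 in LiSel1lKO livers, 1.26-fold, with an adjusted p of 0.138. In wildtype livers the age difference was 0.06, with an adjusted p of 0.834.

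Slc30a1, whose product ZnT1 exports zinc at the cell surface, was 6.46, 6.10 and 5.89 in LiSel1lKO livers at 9 weeks, against 6.59, 6.66 and 6.69 in wildtype livers. The groups did not overlap, and the 3 LiSel1lKO livers were more spread, with an SD of 0.29 against 0.05. The difference was -0.50 ± 0.13 (SE), 0.709-fold, with an adjusted p of 0.107 by limma. Without replicate 1 of the LiSel1lKO livers, the highest of that group, it was -0.65 and called, with an adjusted p of 0.0137. Within column 5 it was -0.48 and within column 7 -0.54.

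At 3 weeks Slc30a1 was 6.56, 6.57, 6.41 and 6.52 in LiSel1lKO livers, against 6.52, 6.58 and 6.85 in wildtype livers, and the groups overlapped. The difference was -0.13 ± 0.13 (SE) with an adjusted p of 0.844 by limma. Between the ages it differed by -0.36 ± 0.13 in LiSel1lKO livers, with an adjusted p of 0.338, and by -0.0011 in wildtype livers, with an adjusted p of 0.999. The difference between the genotype effects at the 2 ages was -0.36 ± 0.18, with an adjusted p of 0.555. In the order of the means the 2 wildtype groups came first, with nearly equal means and overlapping values, then the LiSel1lKO livers at 3 weeks, below every 9-week wildtype liver, and the LiSel1lKO livers at 9 weeks, which overlapped with those at 3 weeks.

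Slc30a10, the manganese exporter ZnT10, differed most between genotypes at 9 weeks among the 7 genes on the log2 scale. It was 4.98, 5.26 and 5.19 in LiSel1lKO livers, against 5.59, 6.11 and 6.33 in wildtype livers, with no overlap. The difference was -0.87 ± 0.21 (SE), 0.548-fold, with an adjusted p of 0.0743 by limma. It was called by limma when the test ran only over features with 1 gene symbol, at an adjusted p of 0.0365. The same held only over features brighter than the median, at 0.0408. Why these fits gained the call was not tested. Within column 5 the difference was -1.03 and within column 7 -0.70. At 9 weeks 3 of the 7 genes, Mt1, Slc30a1 and Slc30a10, had groups that do not overlap, against 20.7% of all genes.

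At 3 weeks Slc30a10 was 5.04, 5.27, 5.78 and 5.55 in LiSel1lKO livers, against 5.45, 5.45 and 5.12 in wildtype livers, and the groups overlapped. The difference was 0.07 ± 0.20 (SE) with an adjusted p of 0.956 by limma. In wildtype livers it was 0.67 ± 0.21 higher at 9 weeks than at 3 weeks, 1.60-fold, with no overlap and an adjusted p of 0.164. In LiSel1lKO livers the age difference was -0.27 ± 0.20, with an adjusted p of 0.746. The difference between the genotype effects at the 2 ages was -0.94 ± 0.29, with an unadjusted p of 0.00783 and an adjusted p of 0.362. Each neighbouring pair of groups in the order of the means overlapped.

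**Figure D3:**
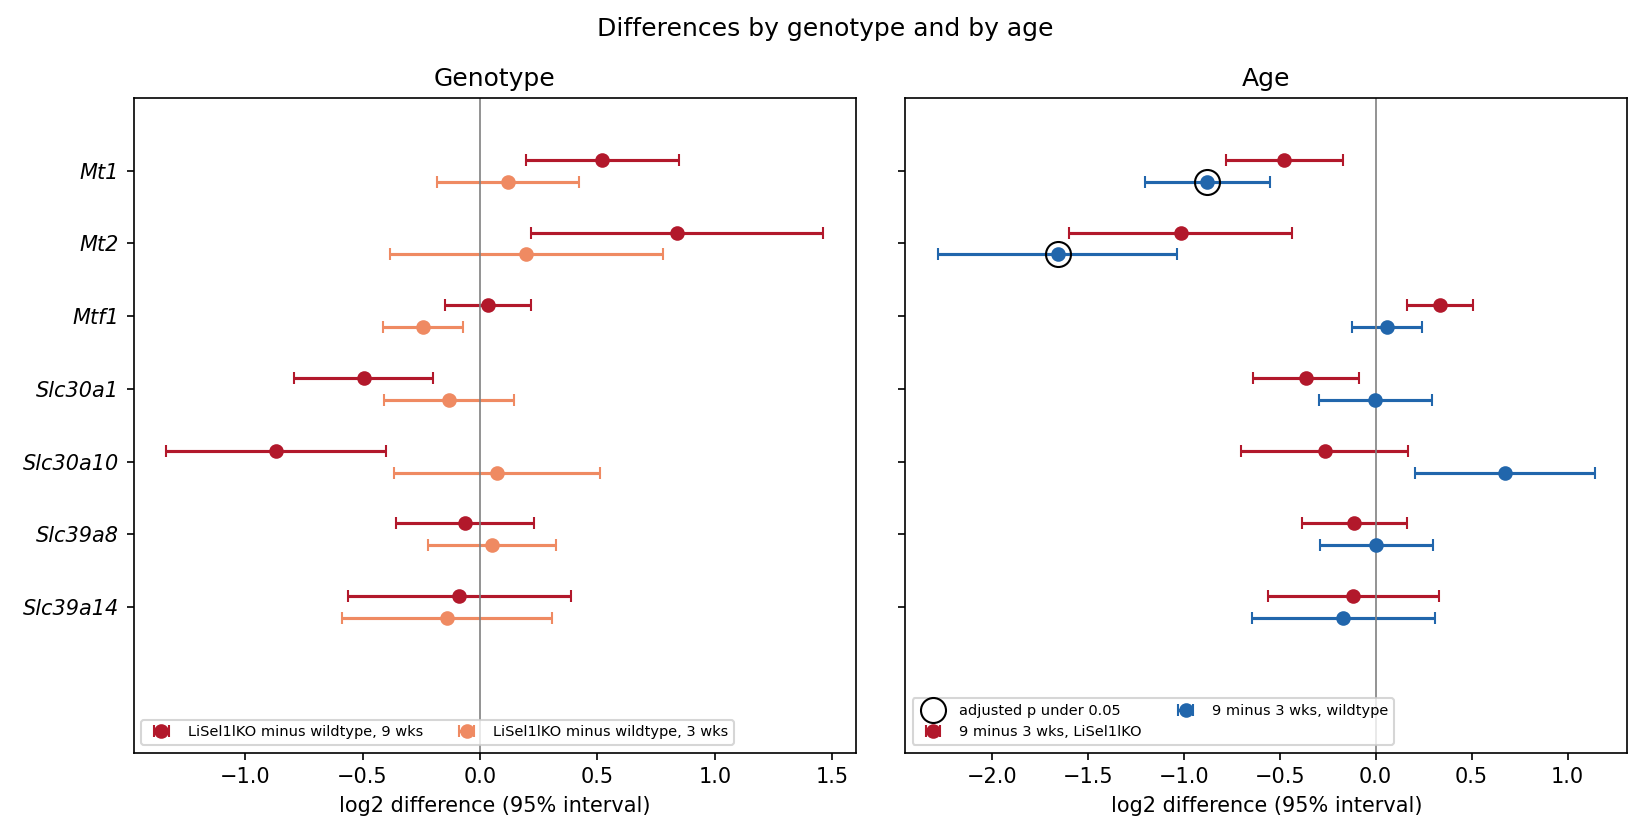
Log2 differences of the 7 genes with 95% intervals, LiSel1lKO minus wildtype at each age in the left panel and 9 minus 3 weeks in each genotype in the right panel; circles mark an adjusted p under 0.05. Circles stand only at the age differences of Mt1 (-0.88) and Mt2 (-1.66) in wildtype livers.

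The 2 importers among the 7 genes showed no called difference, and every neighbouring pair of groups overlapped. Slc39a8 was 7.18, 7.21 and 7.28 in LiSel1lKO livers at 9 weeks, against 7.14, 7.28 and 7.45 in wildtype livers. The difference was -0.06 ± 0.13 (SE), with an adjusted p of 0.893 by limma and a 95% interval from -0.36 to 0.23. At 3 weeks it was 7.05, 7.23, 7.58 and 7.47 in LiSel1lKO livers, against 7.19, 7.28 and 7.38 in wildtype livers, a difference of 0.05 ± 0.12 with an adjusted p of 0.949.

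Slc39a14 was 9.33, 8.96 and 9.03 in LiSel1lKO livers at 9 weeks, against 9.15, 9.39 and 9.04 in wildtype livers. The difference was -0.09 ± 0.22 (SE), with an adjusted p of 0.911 by limma and a 95% interval from -0.56 to 0.39. At 3 weeks it was 9.85, 9.21, 8.93 and 8.91 in LiSel1lKO livers, against 9.48, 9.29 and 9.32 in wildtype livers, a difference of -0.14 ± 0.20 with an adjusted p of 0.906. The LiSel1lKO livers at 3 weeks were the most spread group, with an SD of 0.44 against 0.10 in wildtype livers of that age. These 4 livers stand in the same order in Slc39a14, Mtf1 and Sel1l, with replicate 1 highest and replicate 4 lowest in each. Replicate 1 was the lowest of the 4 in Slc39a8 and Slc30a10. This was seen after the values were known and was not tested.

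Some other genes of the 2 transporter families were called higher in LiSel1lKO livers at 9 weeks. Among the 8 other ZnT genes, 2 were called higher, where 1.03% of all features were, and none was called lower. By direction 6 were higher and 2 lower, with a median difference of 0.13. Among the 12 other ZIP genes, 2 were called higher and none lower. By direction 8 were higher and 4 lower, with a median of 0.26, against -0.0080 over all genes. Groups did not overlap for 3 of the 8 and 6 of the 12, against 20.7% of all genes. Among these Slc30a9 (mean 7.50 against 7.70), Slc39a4 (8.22 against 8.84) and Slc39a5 (3.92 against 4.35) were lower in LiSel1lKO livers. Slc39a6 (5.06 against 4.01) and Slc39a9 (7.83 against 7.45) were higher without being called, and the rest were the called genes that follow. Slc39a7, whose product ZIP7 releases zinc from the endoplasmic reticulum, was 7.34, 7.70 and 7.90 in LiSel1lKO livers, against 6.79, 6.69 and 6.85 in wildtype livers. Its difference was 0.87 ± 0.12 (SE), 1.83-fold, with an adjusted p of 0.0121 by limma. Slc30a5, whose product ZnT5 loads zinc into the early secretory pathway, was 7.02, 7.56 and 7.54 in LiSel1lKO livers, against 6.60, 6.75 and 6.54 in wildtype livers. It rose by 0.74 ± 0.13, 1.68-fold, with an adjusted p of 0.0232.

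Slc39a13, whose product ZIP13 moves zinc out of Golgi and related vesicles, was 6.93, 7.46 and 7.51 in LiSel1lKO livers, against 6.61, 6.50 and 6.75 in wildtype livers. Its difference was 0.68 ± 0.15 (SE), with an adjusted p of 0.0495 by limma. Slc30a3, known as a transporter that fills synaptic vesicles with zinc in neurons, was 5.32, 6.69 and 6.62 in LiSel1lKO livers, against 4.30, 4.68 and 4.76 in wildtype livers. Its difference was 1.63 ± 0.32, 3.10-fold, with an adjusted p of 0.0362. In all 4 genes every LiSel1lKO liver was above every wildtype liver, and replicate 1 was the lowest LiSel1lKO liver. Of 23 alternatives the call was lost in 6 for Slc39a7, 10 for Slc30a5, 14 for Slc30a3 and 19 for Slc39a13. Leaving out single livers ended the call of each of these genes at least once. Adjusted p-values then rose up to 0.0602 for Slc39a7, 0.112 for Slc30a5, 0.152 for Slc30a3 and 0.196 for Slc39a13. Those of Slc30a3 and Slc39a13 were lost also without single 3-week livers, which stand outside the comparison. The calls were also lost when only the 9-week livers were fitted, at adjusted p-values of 0.168 for Slc39a7, 0.202 for Slc30a5, 0.209 for Slc30a3 and 0.237 for Slc39a13. That of Slc39a13 was lost with the array column as a block too, at 0.0759, and with arrays centred on their medians, at 0.0617.

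At 3 weeks none of the other ZnT or ZIP genes was called, and the medians were 0.10 for both families. At that age 2 of the 8 other ZnT genes and 2 of the 12 other ZIP genes had groups that do not overlap. The share over all genes was 7.46%. Slc30a9, from 7.34 to 7.50 in LiSel1lKO livers against 7.58 to 7.65 in wildtype livers, was lower, as at 9 weeks. So was Slc39a4, from 7.93 to 8.44 against 8.57 to 9.08. Slc30a5 and Slc39a7 were higher, as at 9 weeks. Slc30a5 ranged from 7.14 to 7.31 in LiSel1lKO livers, against 6.63 to 6.69 in wildtype livers, a difference of 0.54 ± 0.12 (SE) with an adjusted p of 0.396 by limma. Slc39a7 ranged from 7.21 to 7.39 in LiSel1lKO livers, against 6.77 to 6.90 in wildtype livers, a difference of 0.42 ± 0.12 with an adjusted p of 0.439. With age in wildtype livers, Slc39a5, an importer of the basolateral membrane, was 4.39, 4.32 and 4.34 at 9 weeks, against 5.15, 5.92 and 5.76 at 3 weeks. It fell by 1.26 ± 0.22 (SE), to 0.417-fold, with an adjusted p of 0.0167 by limma. The groups did not overlap. The call was lost without any 1 of the 3 wildtype livers at 9 weeks, or without replicate 2 or 3 of the 3-week ones, with adjusted p-values up to 0.0638, and at 0.0751 when only the wildtype livers were fitted. In LiSel1lKO livers Slc39a5 was also lower at 9 weeks, from 3.81 to 3.97 against 4.63 to 5.48 at 3 weeks, and was not called.

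**Figure D4:**
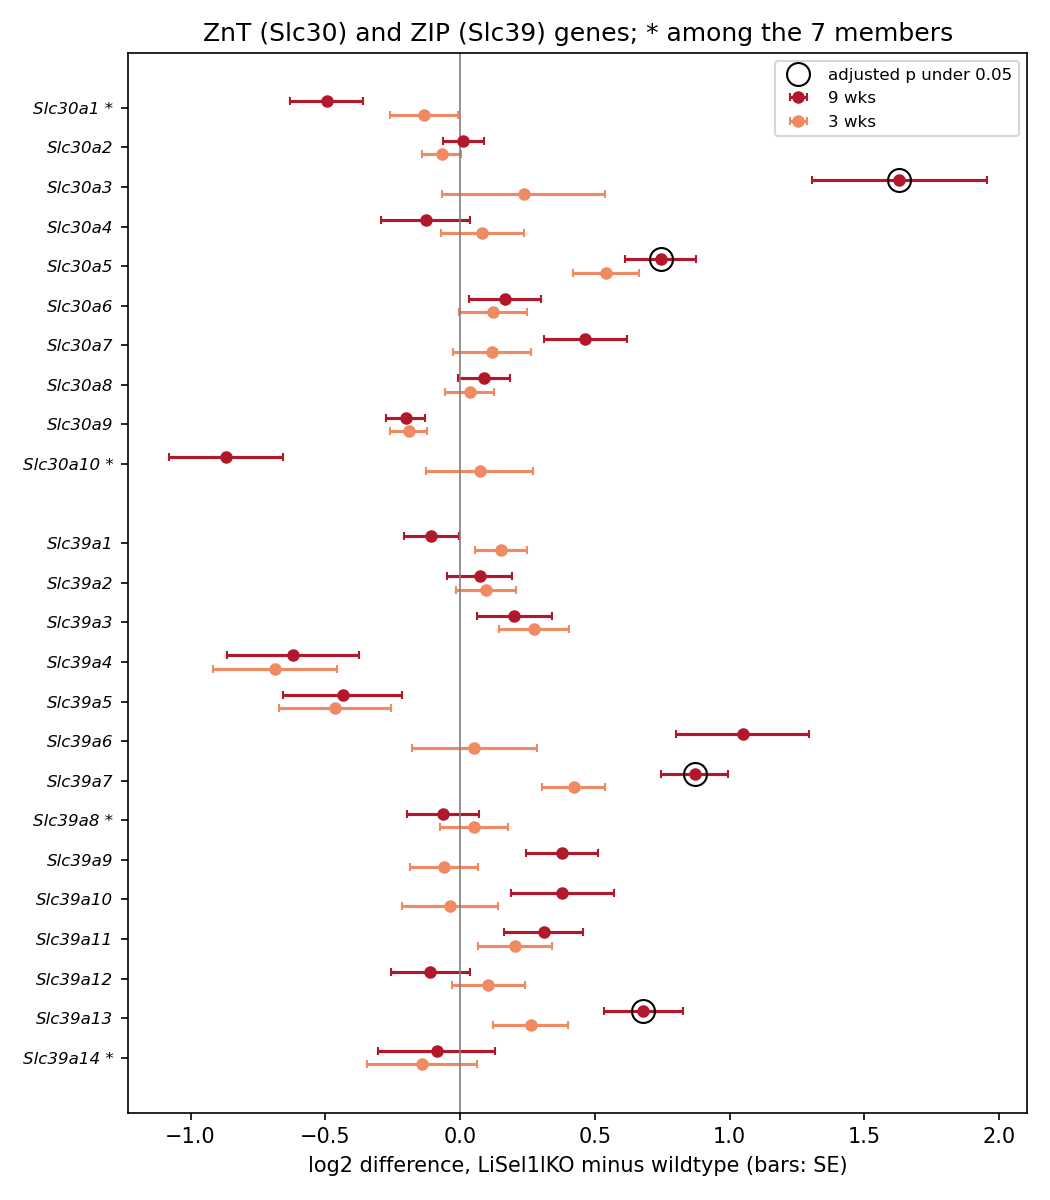
Log2 differences, LiSel1lKO minus wildtype, of the measured ZnT (Slc30) and ZIP (Slc39) genes with their SE at 9 weeks and at 3 weeks; circles mark an adjusted p under 0.05 and asterisks the transporters among the 7 genes. The circles stand at Slc30a3 (1.63), Slc30a5 (0.74), Slc39a7 (0.87) and Slc39a13 (0.68), all at 9 weeks.

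Pathways known to act on metallothionein genes were followed through lists that hold their receptors and regulators as well as other targets. Lists of metal handling and of ATF4 and CHOP-responsive genes were set beside them. The part of any of these in the metallothionein differences was not tested. At 9 weeks none of 12 glucocorticoid-responsive genes, 16 interleukin-6 and STAT3-responsive genes or 11 oxidant-responsive NRF2 genes was called between genotypes, with medians of 0.107, -0.305 and 0.0206. By limma 2, 6 and 2 of them had an unadjusted p under 0.05, against 13.9% of all features. Nor was any of 15 genes of manganese and copper handling or 16 of iron handling called, with medians of -0.08 and -0.0853 and 3 genes each at an unadjusted p under 0.05, against the same 13.9%. Of 11 ATF4 and CHOP-responsive genes, which respond to stress of the endoplasmic reticulum and to lack of amino acids, 4 were called higher and none lower. Over all features 1.03% were called higher. By direction 9 of the 11 were higher, with a median of 1.39. The 4 called genes were Nupr1, a stress-induced chromatin factor, Trib3, a pseudokinase, Ddit4, an inhibitor of mTORC1, and Vldlr, a lipoprotein receptor, with differences of 3.56, 1.99, 1.39 and 1.39. At 3 weeks no gene of these lists was called. With age in wildtype livers 1 of the 11 ATF4 genes and 1 of the 16 interleukin-6 genes were called, where 1.89% of all features were. Asns, the asparagine synthetase of the ATF4 list, fell by 2.39, with 3.90 to 4.48 at 9 weeks against 5.75 to 7.40 at 3 weeks. Orm1, an acute-phase glycoprotein of the interleukin-6 list, rose by 3.31, with 11.21 to 11.43 at 9 weeks against 6.79 to 9.01 at 3 weeks.

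Markers of other liver cells moved with the age comparison in wildtype livers, in which Mt1 and Mt2 fell. All 9 Kupffer cell and macrophage markers were lower at 9 weeks and 1 of them, Marco, passed the test, in a comparison in which 1.12% of all features were called lower. Their mean level per liver ranged from 7.36 to 7.81 in the 9-week wildtype livers, against 8.05 to 8.17 in the 3-week ones. Of 7 sinusoidal endothelial markers 5 were lower and 3 of them, Lyve1, Stab2 and Oit3, were called. Their list had mean levels of 7.94 to 8.06 at 9 weeks against 8.29 to 8.41 at 3 weeks. Reln, 1 of 8 stellate markers, and Slc4a1, 1 of 5 erythroid markers, were also called lower, to be read against the same 1.12%. None of the 9 hepatocyte markers was called, with mean levels of 12.41 to 12.54 at 9 weeks against 12.28 to 12.46 at 3 weeks. The part of these cells in the fall of Mt1 and Mt2 was not tested. Between the genotypes at 9 weeks no marker of the 9 cell type lists was called, and the Kupffer mean level ranged from 6.86 to 8.03 in LiSel1lKO livers, against 7.36 to 7.81 in wildtype livers.

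The genes whose levels over the 13 livers were most like each member were found among 10272 genes by Pearson's r, given as a description since the livers share groups. Mt1 was most like Mt2 (0.98), Cyp2b9 (0.95), a cytochrome P450, and Slc22a26 (0.94), an organic anion transporter, and Mt2 was next most like Fmo4 (0.94), a flavin monooxygenase, and Idh2 (0.94), the mitochondrial isocitrate dehydrogenase. Mtf1 was most like Atrn (0.95), Nceh1 (0.92) and Slco3a1 (0.89). Slc30a1 was most like Ctsh (0.92), F13b (0.91) and Plekhg3 (0.91), and Slc30a10 most like Bdh2 (0.92), Snx29 (0.91) and Ftcd (0.90). Slc39a8 was most like Tspan9 (0.91), Tmem220 (0.86) and BC004004 (0.84), and Slc39a14 most like Pex26 (0.93), Hnrnpa0 (0.87) and Sprr2a1 (0.85). Much of the likeness of Slc22a26 to Mt1 lay between the groups, since r of the deviations from the group means was 0.48, against 0.91 for Mt2 and Mt1.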

How the data were processed

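Expression was measured on whole-transcript Affymetrix arrays in 13 livers. The authors deposited log2 values that, per the submitters' processing notes, came from RMA, which corrects the background, normalizes the arrays to each other and summarizes probes. Its version and probe annotation are not given in the sources used here. No count or depth stands behind such values, and the number of arrays limits their precision. Array medians lay between 3.72 and 3.81. Of 35556 features 21218 had 1 gene symbol in the platform annotation, 1881 had several and 12457 were not listed. A second feature that names Slc30a1 together with another gene was not used.

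From these values, limma 3.58.1 in R 4.3.3 fitted 1 mean per group over all 13 livers, with moderated variances and Benjamini-Hochberg adjustment over all features. Calls were adjusted p under 0.05, two-sided. The script was tested on simulated data. Nothing states whether replicates were separate litters, so p-values measure the spread between these livers. Members and lists were chosen with earlier results of these data known. Named genes were the members, list genes called in any comparison and up to 3 genes most like each member by correlation. Alternatives included other sets of features or livers, the array column and the replicate number as blocks, each liver left out, an intensity trend and array centring. Figures were drawn with matplotlib 3.10.9.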

Additional observations from a re-analysis of the deposited data

Results flagged for a closer look

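The LiSel1lKO livers at 3 weeks, the only group of 4, were tested for a value far from the rest in each of 13 genes. These were the 7 members, Sel1l and the transporter genes called in a comparison. In 3 genes a value stood out, each in replicate 4. Chance marks about 1 in 20 such tests, but the 13 tests share the same 4 livers and are not independent. Groups of 3 livers were not tested. Slc30a5 was 7.31 there, above the other 3 livers, with a gap of 0.903 of the group's range. Slc39a7 was 7.39, also above, with a gap of 0.839 of the range. Slc39a13 was 6.95, below the other 3, with a gap of 0.838 of the range. None of the 7 members was marked in this way.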

How the results depend on the processing

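The 7 genes in 5 comparisons gave 805 values under alternatives. Of these 762 kept their direction and their side of the threshold, 8 lost a call, 3 gained one and 32 changed sign, and each changed sign belonged to an uncalled difference. The lost calls were Mt1 and Mt2 with age in wildtype livers, 4 each, and the gained ones Slc30a1 once and Slc30a10 in 2 settings at 9 weeks. No other feature annotated to 1 gene exists for a member, so the planned change of feature was not run. The causes were not tested, except that a fit within a column or of 2 groups has fewer livers. Precision is limited by 3 or 4 arrays per group.

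The count of features called between genotypes at 9 weeks, 539, became 1 with only those groups fitted, 294 with the array column as a block, 859 over features brighter than the median, 0 within column 5 and 0 within column 7. It was 279 without LiSel1lKO livers 3 and 4 of 3 weeks, a setting chosen after seeing the data, and 18 to 1178 with single livers left out. Members called there were 1 over features with 1 symbol, 1 over bright features and 0 to 1 with single livers left out. At 3 weeks 2 features were called over those with 1 symbol, and 0 to 1 with single livers left out. The difference of the genotype effects gave 15 and 0 to 36. The 55 features called with age in LiSel1lKO livers became 9 with only those groups, 18 with the column as a block, 144 over features with 1 symbol, 109 over bright ones, 90 with an intensity trend, 35 with centred arrays, 0 within each column and 6 to 210 with single livers left out. The 672 in wildtype livers became 255 with only those groups, 0 within each column and 296 to 639 with single livers left out, and the 2 members called became 0 in those 3 fits and 0 to 2 with single livers left out.

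Replicate numbers did not pair the livers: same-numbered livers of the 2 genotypes had correlations of deviations from -0.0108 to 0.0713. With the replicate block, 184 features were called between genotypes at 9 weeks, 12 with age in LiSel1lKO livers and 440 with age in wildtype livers. Mt1 and Mt2 were called with age in wildtype livers under the replicate block too, at adjusted p-values of 0.0474 and 0.0379 by limma. The block ended the calls of Slc30a5 (adjusted p = 0.0635) and Slc39a13 (0.11) between genotypes at 9 weeks and of Slc39a5 (0.0504) with age in wildtype livers.

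The changes of sign were these. Within column 5, the age difference was 0.124 for Slc39a14 in LiSel1lKO livers and -0.0345 for Mtf1 and -0.00785 for Slc39a8 in wildtype livers, and the difference of genotype effects was -0.0956 for Mt2. Within column 7, the genotype difference was -0.0911 for Mtf1 at 9 weeks and -0.0361 for Slc30a10 and 0.099 for Slc39a14 at 3 weeks, the age difference was 0.0633 for Slc30a1 in wildtype livers, and the difference of genotype effects was -0.233 for Slc39a14. With the column as a block Slc30a1 differed by 0.0198 with age in wildtype livers. With the replicate block Slc39a14 had a difference of genotype effects of -0.0527. Without LiSel1lKO livers 3 and 4 of 3 weeks, the genotype difference at 3 weeks was -0.181 for Slc30a10, -0.142 for Slc39a8 and 0.164 for Slc39a14, the difference of genotype effects was 0.0782 for Slc39a8 and -0.251 for Slc39a14, and the age difference in LiSel1lKO livers was 0.0822 for Slc39a8. With single livers left out, the genotype difference at 9 weeks ranged from -0.198 to 0.0112 for Slc39a14 and from -0.14 to 0.0163 for Slc39a8, and at 3 weeks from -0.0503 to 0.194 for Slc30a10 and from -0.0312 to 0.147 for Slc39a8. In the same way the difference of genotype effects for Slc39a14 ranged from -0.058 to 0.262, the age difference in LiSel1lKO livers from -0.228 to 0.0923 for Slc39a14, and that in wildtype livers from -0.066 to 0.0988 for Slc30a1 and from -0.0765 to 0.0798 for Slc39a8.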
